A study of Mus musculus with 223 samples.

Results

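Serotonin and nicotinic receptor genes were followed in single Htr3a-GFP+ cells of the developing mouse cortex, 9 genes chosen by name out of the 43629 in the count table. They are 2 subunits of the serotonin-gated channel (Htr3a and Htr3b), 3 G-protein-coupled serotonin receptors (Htr1a, Htr1b and Htr2c) and 4 subunits of the nicotinic acetylcholine receptor (Chrna4, Chrna5, Chrna7 and Chrnb2). The mice, of both sexes and on a C57BL/6 background, all carried a transgene in which the regulatory sequences of Htr3a drive enhanced green fluorescent protein, a line that labels mainly interneurons (INs) of the caudal ganglionic eminence (CGE). Whole cortices of several embryos or pups were pooled at each age, GFP+ cells were sorted by flow cytometry, and single cells were captured on microfluidic chips for polyA RNA sequencing. The table holds 82 cells from embryonic day 18 (E18), 66 from postnatal day 2 (P2) and 75 from postnatal day 5 (P5). The labels place each postnatal cell in 1 of 3 types (22, 31 and 13 cells of types 1, 2 and 3 at P2, and 34, 19 and 22 at P5), and no E18 cell in any. The study drew these types from the same counts, so a gene that differs between types is described here and not tested.

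Serotonin reaches the cortex from raphe neurons, and acetylcholine mainly from the basal forebrain. The serotonin 3 receptor is a fast cation channel of the same pentameric superfamily as the nicotinic receptors. Its A subunit can form a channel by itself, whereas the B subunit needs A. Among the nicotinic subunits, alpha 4 and beta 2 assemble together into the main high-affinity receptor of the brain, alpha 5 is an accessory subunit that joins them, and alpha 7 can form channels by itself. Htr1a and Htr1b couple to inhibitory G proteins and Htr2c to the phospholipase C pathway. In the mature cortex the serotonin-gated channel is found in interneurons that also respond to nicotine.

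Htr3a (ENSMUSG00000032269) lies on chr9:48899213-48911099 of GRCm38, on the minus strand. Htr3b (ENSMUSG00000008590), at chr9:48935008-48964990 on the same strand, is its neighbour at a distance of 23908 bases. The other members are Htr1a (ENSMUSG00000021721, chr13:105443639-105448122, plus strand), Htr1b (ENSMUSG00000049511, chr9:81628291-81633828, minus), Htr2c (ENSMUSG00000041380, chrX:146962513-147197277, plus), Chrna4 (ENSMUSG00000027577, chr2:181018380-181043546, minus), Chrna5 (ENSMUSG00000035594, chr9:54980880-55007779, plus), Chrna7 (ENSMUSG00000030525, chr7:63098692-63212569, minus) and Chrnb2 (ENSMUSG00000027950, chr3:89746195-89764632, minus). All are protein-coding, and reads were counted over their exons.

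The regions upstream of 3 start sites are shown because their genes are the partners that recur below, Htr3b with Htr3a in the same cells, and Chrna4 and Chrnb2 as subunits of 1 receptor. Each is the 250 bases upstream of the RefSeq start (GRCm38.p6), printed 5′ to 3′ on the gene's own strand, which is minus for all 3. Capitals mark GGGCGG on either strand, the letters of a GC box bound by Sp-family factors. The Htr3b window is chr9:48964991-48965240, the Chrna4 window chr2:181039178-181039427, which lies inside the longer gene span given above, and the Chrnb2 window chr3:89764633-89764882.
Htr3b: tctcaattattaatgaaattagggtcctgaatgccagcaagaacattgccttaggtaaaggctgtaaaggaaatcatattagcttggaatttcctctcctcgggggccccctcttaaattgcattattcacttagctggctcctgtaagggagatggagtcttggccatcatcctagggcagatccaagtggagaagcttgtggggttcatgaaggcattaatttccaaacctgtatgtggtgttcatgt
Chrna4: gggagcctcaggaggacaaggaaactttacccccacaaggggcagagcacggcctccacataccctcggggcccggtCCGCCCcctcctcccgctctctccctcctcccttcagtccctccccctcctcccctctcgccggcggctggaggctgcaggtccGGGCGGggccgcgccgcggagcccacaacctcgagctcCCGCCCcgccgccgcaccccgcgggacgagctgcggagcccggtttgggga
Chrnb2: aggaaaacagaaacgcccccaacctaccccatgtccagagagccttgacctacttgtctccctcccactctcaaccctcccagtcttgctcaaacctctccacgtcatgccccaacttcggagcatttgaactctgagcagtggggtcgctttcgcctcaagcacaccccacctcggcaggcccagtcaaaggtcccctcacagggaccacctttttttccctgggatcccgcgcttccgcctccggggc
The windows differed in base composition. G and C made up 44% of the Htr3b window, with 1 CG dinucleotide, 74.4% of the Chrna4 window, with 24, and 59.6% of the Chrnb2 window, with 10, against a median of 52.4% over the 32851 windows of the RefSeq table. GGGCGG occurred 3 times in the Chrna4 window and in neither of the other 2, and 32.7% of all windows held it. The homeobox core TAATTA, searched because the Dlx and related factors of INs bind such letters, was in none of the windows of the 8 members with an entry, and 4.84% of all windows held it.

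Levels are given as RPM, the read pairs on a gene per 1000000 mapped read pairs of the cell. A pooled RPM sums the read pairs over the cells of a group. A cell counts as above the threshold at more than 10 RPM, the level used by the study. Cells had between 3707601 and 15840130 mapped read pairs (median 9463033), so that 10 RPM stood for 37.1 to 158.4 read pairs. Type 3 cells were the shallowest, with a median of 6483871 mapped read pairs at P2 and 7879973 at P5. Since each age is 1 pool of animals and the labels do not tie cells to an animal, each group is 1 sample and no p-value is given. Intervals are exact 95% Poisson (levels) or binomial (shares) intervals. The Poisson intervals cover the counting of read pairs only and not that of molecules, since molecules were not tagged. The binomial intervals treat the cells of a group as independent draws. Neither covers differences between animals.

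The cells were checked against IN markers. Gad2 was above 10 RPM in 66 of 82 E18 cells and in 63.6% to 88.2% of the cells of the postnatal types, and Gad1 in 64 of 82 and in 53.8% to 90.9%. Of the 7 IN markers, 3 to 6 reached 25% of the cells of a group, the fewest in P2 type 2 (Gad1, Gad2 and Dlx1). Slc32a1 reached it in no group, and Dlx2 had no read pair in P2 type 3. At E18, 52 of 82 cells were above 10 RPM for Sst and 40 for Lhx6, which mark INs of the medial rather than the caudal eminence, whereas 10 of 66 P2 cells and 3 of 75 P5 cells passed for Lhx6. In addition, 12 E18 cells were above 10 RPM for at least 2 of 6 excitatory neuron markers. The summed level of these 6 genes ran from 0 to 1739 RPM over the E18 cells, with a median of 0.543. Only 2 cells at P2 and 5 at P5 carried 2 or more markers of any list of another cell class. All 5 at P5 were among the 19 cells of type 2, and 3 of them carried astrocyte or radial glia markers. At P5, 2 of 16 Htr3b cells and 1 of 6 Chrna4 cells above 10 RPM were among these 5. Their part in the values of P5 type 2 was not tested. The sample names further place the cells in 4 library sets whose meaning is not stated, here A to D. All P2 cells are set A, the E18 cells are 48, 9 and 25 of sets B, C and D, and the P5 cells 15, 17 and 43.

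Htr3a dominated the receptor genes. Of all cells at the 3 ages, 78.9% were above 10 RPM for Htr3a, whereas 33 cells passed for Htr3b, 17 for Chrnb2, 11 for Chrna4, 7 for Htr2c, 4 for Chrna7, 2 for Htr1b and none for Htr1a or Chrna5. In all, 7 of 9 members passed in at least 1 cell, and 37 cells passed for no member. Only 9 cells passed for a G-protein-coupled serotonin member, and 29 for a nicotinic member. Per length, Htr3a reached 801.6 RPKM (RPM divided by the exon length in kilobases) over all cells, against 12.4 for Htr3b, 2.24 for Chrna4, 0.748 for Chrnb2, 0.576 for Htr2c, 0.36 for Htr1b and 0.249 for Chrna7.

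**Figure D1:**
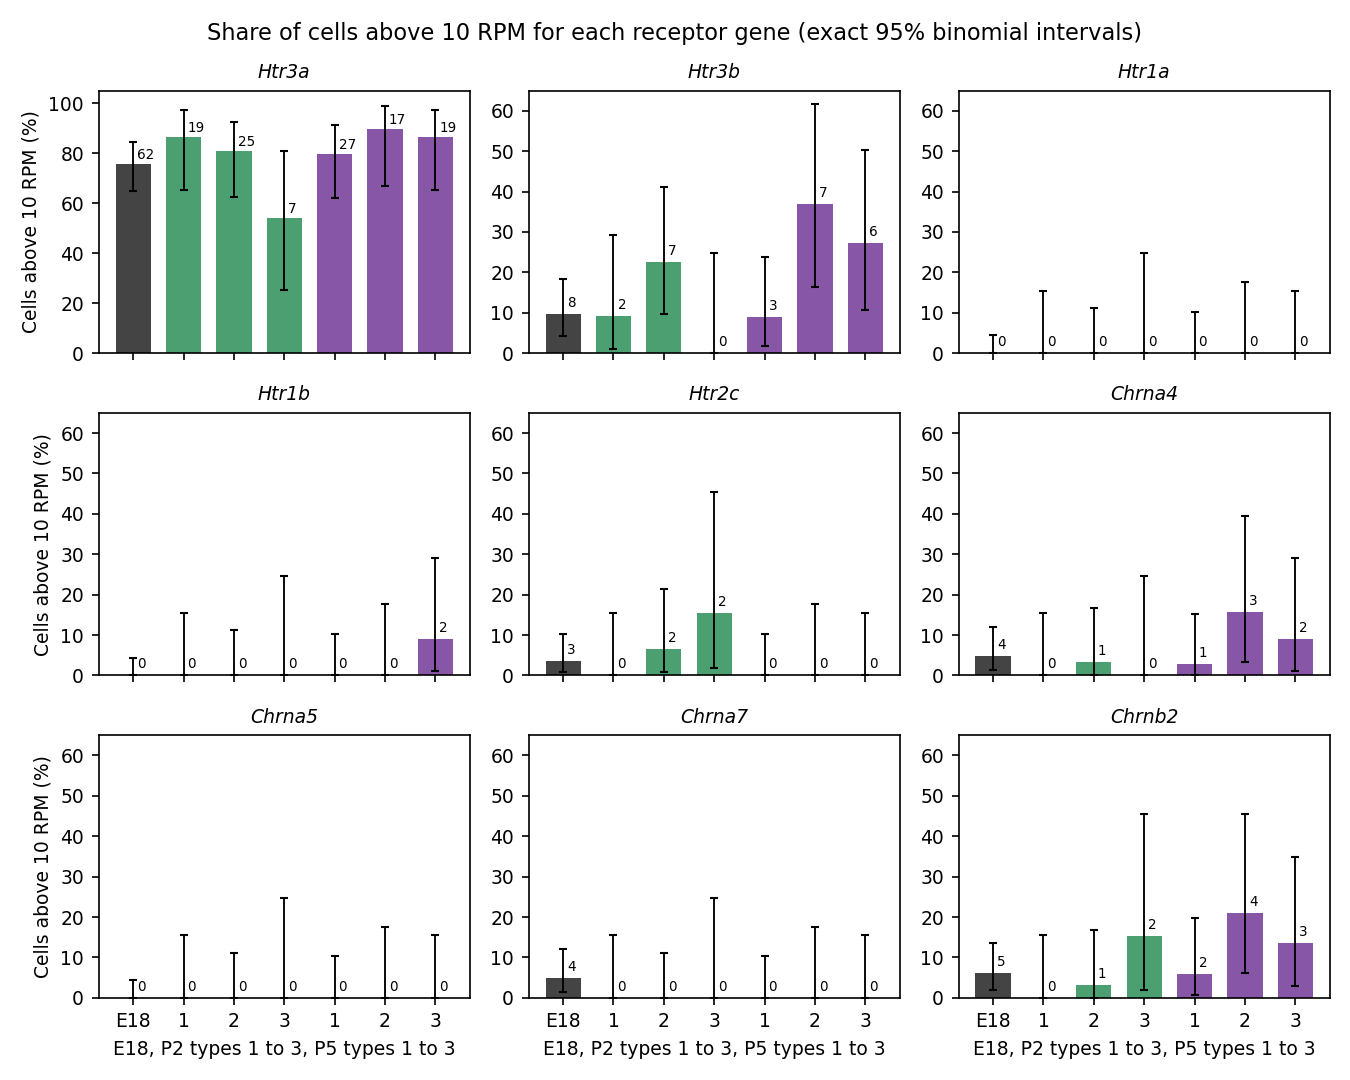
Share of cells above 10 RPM (%, vertical axis) for each of the 9 genes in E18 cells and in types 1 to 3 at P2 and at P5 (horizontal axis); bars are shares, numbers over them cells, and error bars exact 95% binomial intervals. The Htr3a panel has a taller axis than the others: its lowest bar, 53.8% in P2 type 3, is higher than the highest bar of any other gene, 36.8% for Htr3b in P5 type 2.

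Htr3a was among the most abundant transcripts of every group, ranking from 8th to 43rd of all genes by pooled RPM, but its level differed widely from cell to cell. In E18 cells it ran from 0 through a median of 688 to 15246 RPM. In P2 cells the lowest, median and highest values were 0.108, 1779 and 10825 RPM in type 1, 0.297, 1385 and 9215 in type 2, and 0.433, 16.5 and 6625 in type 3. In P5 cells they were 0, 412 and 7681 in type 1, 0.124, 2167 and 4681 in type 2, and 0.175, 579.5 and 1680 in type 3. Each group thus held cells near 0 and cells above 1000 RPM, and the ranges of all 7 groups overlapped.

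The pooled level followed the order P2 type 1 (2278 RPM), E18 (2045), P2 type 2 (1814), P5 type 2 (1745), P5 type 1 (970.9), P2 type 3 (766.8) and P5 type 3 (682.8). The counting intervals of neighbours in this order do not overlap, but the distance between neighbours is far less than the spread between cells. The standard deviation of log2(RPM + 1) over the cells of a group was 3.10 to 4.47. For the genes within 2-fold of Htr3a in pooled level, the median of that deviation was 1.12 to 1.56 in E18, P2 types 1 and 2 and P5 type 2. It was 2.24 in P5 type 1, 2.73 in P5 type 3 and 4.14 in P2 type 3. Htr3a therefore varied more than most genes of like abundance in every group, including 91.2% of them at E18 and 66.3% in P2 type 3.

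Although each cell had been sorted on a reporter of this gene, 47 were at or below 10 RPM for Htr3a and 6 had no Htr3a read pair at all, 2 of them at E18 and 4 in P5 type 1. The share of cells above 10 RPM was 75.6% (62 of 82, interval 64.9 to 84.4%) at E18, 77.3% (51 of 66) at P2 and 84% (63 of 75, 73.7 to 91.5%) at P5. These intervals overlap, but those of single library sets need not. Within set D the share was 64% (42.5 to 82.03%) at E18 and 97.7% (87.7 to 99.9%) at P5, without overlap, whereas within set B it was 85.4% (72.2 to 93.9%) at E18 and 46.7% (21.3 to 73.4%) at P5, the opposite order. By type the share was 86.4%, 80.6% and 53.8% at P2 and 79.4%, 89.5% and 86.4% at P5. P2 type 3 was the lowest, with 7 of 13 cells, and a single cell gave 70.4% of its Htr3a read pairs. Without that cell its pooled level was 247 RPM.

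**Figure D2:**
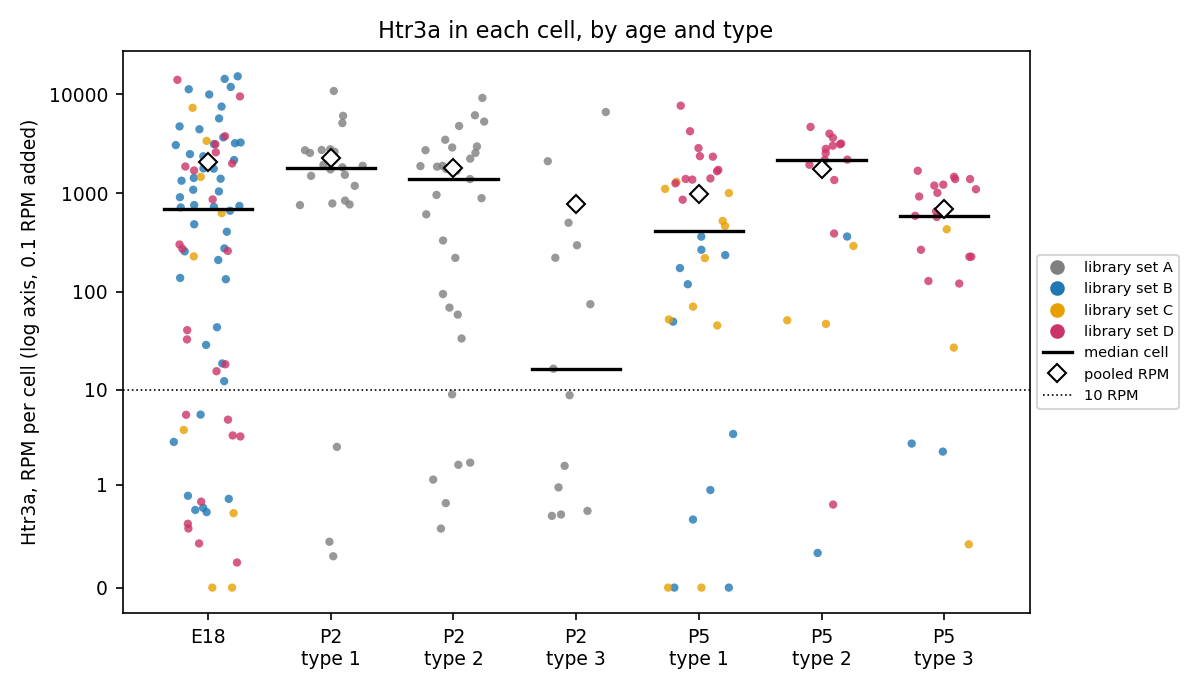
Htr3a RPM in each cell (vertical log axis, with 0.1 RPM added) by age and type (horizontal axis); 1 point is 1 cell, coloured by library set, lines are medians, diamonds pooled RPM and the dotted line 10 RPM. Cells of every group spread from below 10 RPM to over 1000 RPM, and the median of P2 type 3, 16.5 RPM, sits far below the other medians.

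At P5 the Htr3a level also moved with the library set. In set B, 7 of 15 cells were above 10 RPM (pooled 114.6 RPM, median 3.51, highest 362), in set C 14 of 17 (326.7 RPM, median 70.4, highest 1299) and in set D 42 of 43 (1813 RPM, median 1388). Type 1 cells showed the same order, at 102.2, 408 and 2289 RPM. At E18 the order was another one, with 2409 RPM in set B (41 of 48 cells), 1414 in C (5 of 9) and 1540 in D (16 of 25). Within set D the P5 types had 2289 RPM (12 of 12 cells), 2415 (13 of 14) and 832 (17 of 17) for types 1, 2 and 3. No P5 type 3 cell exceeded 1680 RPM.

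**Figure D3:**
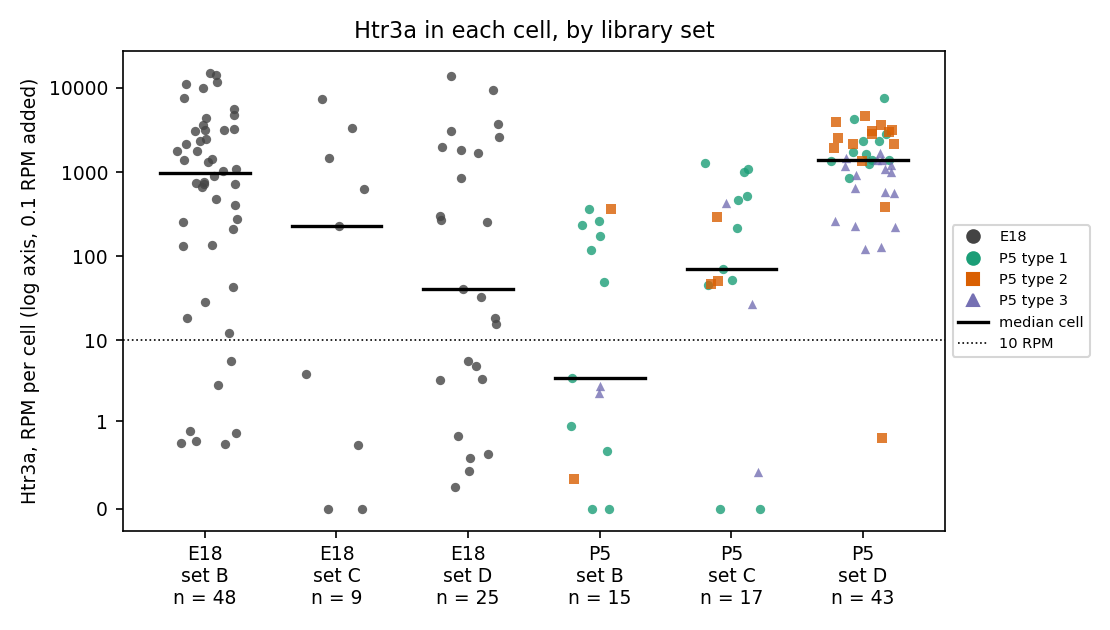
Htr3a RPM in each cell (vertical log axis, with 0.1 RPM added) by library set at E18 and P5 (horizontal axis, n cells in each); symbols show the P5 types, lines are medians and the dotted line is 10 RPM. At P5 the medians step up from 3.51 RPM in set B to 70.4 in C and 1388 in D, whereas the E18 sets hold high cells throughout.

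To ask whether Htr3a differed between ages and types, pooled levels were compared as log2 ratios with 1 RPM added to both sides, a gene being called at an absolute value of 1 (2-fold) or more. Against E18, Htr3a was -0.15 at P2 and -0.89 at P5. The P5 value was -4.38 within set B, -2.11 within set C and +0.24 within set D, and -0.14 when set B was left out, so that its size and its direction differed between sets. The mean of log2(RPM + 1) over cells was 7.75 at E18, 8.15 at P2 and 8.04 at P5, the opposite direction of both pooled ratios. The parts of the library set and of the E18 cells with Sst and Lhx6 in the age difference were not tested. P2 cells are all of set A, and P5 cortices were dissociated in another medium and at another temperature than the younger ones, so that age cannot be told apart from these for the pooled values. Against the other types of its age, Htr3a in types 1, 2 and 3 was 0.52, -0.04 and -1.39 at P2 and -0.34, 1.00 and -0.86 at P5. The mean of log2(RPM + 1) was 9.58, 8.41 and 5.10 in P2 types 1 to 3 and 7.45, 9.18 and 7.97 at P5. By this measure type 2 at P2 lay above the mean of all P2 cells (8.15), the opposite of its pooled sign. The differences of means for type 1 are given below and pass the call at both ages. The value of type 2 at P5 is 0.996 before rounding, just under the call, and was 0.67 within set D. That of type 1 at P5 was 1.42 within set C and 0.52 within set D, the opposite of its pooled sign. Type 3 had the lowest pooled level at both ages, although at P5 its median cell was above that of type 1. Its P5 value was -1.50 within set D. Other scalings raised the median of all genes in type 3, at P2 by 0.71 (TMM) and 0.92 (DESeq2 size factors) and at P5 by 0.49 and 0.48, and there gave -0.68 and -0.47 at P2 and -0.37 and -0.38 at P5. These keep the sign but end the call at P2. Scaled by the total of counts on genes instead, which raised that median by 0.21 at P2 and 0.75 at P5, the Htr3a value of type 3 was -1.18 at P2, still past the call, and -0.11 at P5.

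Htr3b, the B subunit, was a rarer transcript with a broad range. Read pairs were found in 50.7% of all cells, and 33 cells were above 10 RPM. At E18, 8 of 82 cells passed (9.76%, 4.31 to 18.3%), from 14.6 to 716 RPM. At P2 there were 2 of 22 type 1 cells (23.1 and 151.02 RPM), 7 of 31 type 2 cells (10.0 to 243 RPM) and none of 13 type 3 cells, which allows a share of up to 23.1%. At P5, 3 of 34 type 1 cells passed (23.9, 366 and 1122 RPM), 7 of 19 type 2 cells (26.4 to 244 RPM) and 6 of 22 type 3 cells (11.1 to 688 RPM). Htr3b was therefore seen in the largest share of cells in P5 type 2 (36.8%, 16.3 to 61.6%), whose interval overlaps those of the other groups. Of the P5 cells that passed, 2 were among the type 2 cells with markers of other cell classes.

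The pooled Htr3b level was 27.7 RPM at E18, 8.71, 14.7 and 1.44 RPM in P2 types 1 to 3 and 38.2, 48.1 and 71.9 RPM in P5 types 1 to 3. Few cells set these levels. In P5 type 1, 1 cell gave 65.3% of the read pairs, and without it the level was 13.6 RPM. Over whole ages the level was 10.7 RPM in P2 cells and 49.1 in P5 cells, which gave log2 ratios against E18 of -1.29 and 0.80. The P2 value was -0.43 without the highest E18 cell and 0.24 as a difference of mean log2(RPM + 1). The P5 value was 1.67 without the same E18 cell, past the call, and 1.05, 1.499 and 0.80 within sets B, C and D. Of the P5 cells that passed, 14 of 43 were in set D and 1 each among the 15 of set B and the 17 of set C.

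Within set D at P5, 2 of 12 type 1 cells, 6 of 14 type 2 cells and 6 of 17 type 3 cells were above 10 RPM for Htr3b, at pooled levels of 36.98, 66.4 and 90.1 RPM. The share and the median cell (0.183, 3.74 and 0.411 RPM) were highest in type 2, whereas the higher pooled level of type 3 included 2 cells at 687.8 and 667.2 RPM.

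Nearly every cell with Htr3b also had Htr3a. Of the 33 cells above 10 RPM for Htr3b, 32 (96.97%) were above 10 RPM for Htr3a. The exception was a P5 type 1 cell of set B with 1122 RPM of Htr3b and 0.39 of Htr3a. Conversely, 18.2% of the cells with Htr3a (12.8 to 24.7%) also had Htr3b, and 1 of the 47 without it (2.13%, 0.0539 to 11.3%). Over all cells, which were sorted on an Htr3a reporter, 78.9% passed for Htr3a. At P5, 14 of the 16 Htr3b cells were in set D, where 42 of 43 cells passed for Htr3a. These shares pool the library sets, and the part of the sets in them was not tested. Per length, Htr3b was 0.285% to 140% of Htr3a in the 32 cells above 10 RPM for both, with a median of 5.40%. It was the higher of the pair in 2 of them. Of these, an E18 cell had 15.5 RPM of Htr3a and 25.1 of Htr3b, and a P5 type 3 cell 572 and 667 RPM.

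**Figure D4:**
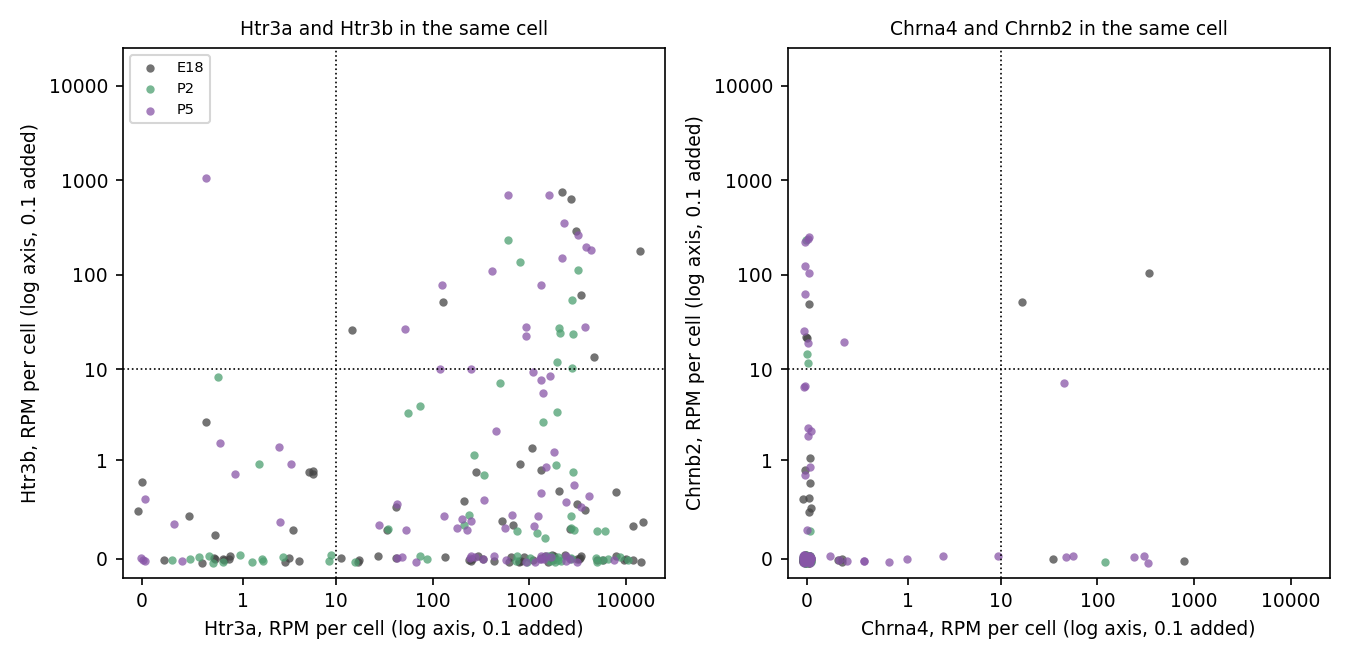
Levels of Htr3a and Htr3b (left) and of Chrna4 and Chrnb2 (right) in the same cell, RPM with 0.1 added on log axes; 1 point is 1 cell, shifted slightly at random so that points do not hide each other, coloured by age, and dotted lines mark 10 RPM. On the left, 32 of 33 cells above the horizontal line lie right of the vertical one; on the right, 2 cells, both E18, lie past both lines.

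The G-protein-coupled serotonin receptors were rare. Htr1a, the autoreceptor of raphe neurons, had 15 read pairs (1.53 RPM) in a single P2 type 1 cell and none in the other groups. Htr1b, a presynaptic receptor, had read pairs in 68.6% of all cells, but with a median of 3 read pairs in those cells. It passed 10 RPM in 2 P5 type 3 cells, at 50.6 and 283 RPM, and its highest value outside that type was 9.52 RPM, in P5 type 2. Both Htr1b cells were also above 10 RPM for Htr3a and Chrnb2. The antisense gene D430036J16Rik, which overlaps the exons of Htr1b on the opposite strand, had 0 read pairs in all cells.

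Htr2c was confined to few cells, and at more than 10 RPM it was found at E18 and P2 only. At E18, 3 of 82 cells had 11.5, 35.1 and 47.998 RPM, the cell at 35.1 being among the 12 with excitatory neuron markers. At P2, 2 type 2 cells had 186.5 and 459 RPM and 2 type 3 cells 15.9 and 482 RPM, whereas the highest type 1 cell had 8.94. At P5, 0 of 75 cells passed, which allows a share of up to 4%, and 44 read pairs in 4 cells were counted in all. The pooled level was 1.10 RPM in E18 cells, 17.02 in P2 cells and 0.0625 in P5 cells. The log2 ratio of P2 against E18 was 3.10. Among types at P2 it was -4.34 for type 1 and 1.73 for type 3, and the latter became -2.50 without the highest type 3 cell. The choroid plexus, which is rich in Htr2c, was checked: of its 5 listed markers Ttr, Folr1, Clic6 and Kcne2 were at 0 in every group, and the summed level, all of it Kl, was 0 to 17.98 RPM per cell.

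The nicotinic subunits were each found in a small share of cells, led by Chrnb2 and Chrna4. Chrnb2, the beta 2 subunit, passed 10 RPM in 17 cells (7.62% of all). At E18 there were 5 of them, at 20.7, 20.9, 52.99, 53.8 and 97.3 RPM. At P2 no type 1 cell passed, 1 type 2 cell had 11.8 RPM and 2 type 3 cells 13.5 and 214.3 RPM. At P5 there were 2 type 1 cells (58.8 and 123.3 RPM), 4 type 2 cells (19.3 to 254 RPM) and 3 type 3 cells (19.9, 233 and 244 RPM). The highest postnatal cells thus had more than the highest E18 cell, and the ranges overlapped.

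The pooled Chrnb2 level was 3.55 RPM at E18, 2.18 at P2 and 12.9 at P5, a log2 ratio of P5 against E18 of 1.61. It was 1.38, 0.79 and 1.49 within sets B, C and D, but the values of sets B and C rest on 1 P5 cell each above 10 RPM. In set B that cell held 1163 of the 1301 Chrnb2 read pairs. By type at P5 the level was 5.22, 17.7 and 22.98 RPM for types 1, 2 and 3, a log2 ratio of -1.77 for type 1 against the others. This ratio was -1.75 within set C, where 1 type 3 cell passed, and -2.46 within set D. In set B the order was the opposite, with 11.7 RPM in type 1 and 0 read pairs in the 2 cells each of types 2 and 3. At E18, 4 of the 5 Chrnb2 cells were among the 12 with excitatory neuron markers, and without those 12 the E18 share was 1.43% in place of 6.10%. The age ratio was 2.54 without those 12 and the 5 P5 cells with markers of other cell types. The part of these cells in the E18 values was not tested. Chrnb2 shares 1365 exon bases with Adar on the opposite strand. Adar was at 60.3 RPM pooled and above 10 RPM in 65 cells, 5 of the 17 Chrnb2 cells among them. Whether counting used the strand is not given in the sources used here, so reads of this overlap cannot be told apart.

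Chrna4, the alpha 4 subunit, was above 10 RPM in 11 cells. At E18 4 cells had 17.8, 36.2, 331 and 733 RPM. The lower 2 were among the 12 with excitatory neuron markers, and without those 12 the E18 share was 2.86% in place of 4.88%. At P2 a single type 2 cell passed, with 131.2 RPM, and it held all Chrna4 read pairs of that age. At P5 1 type 1 cell (58.04 RPM), 3 type 2 cells (50.4, 249 and 275 RPM) and 2 type 3 cells (47.3 and 331 RPM) passed. The ranges at E18 and P5 thus overlapped, and the log2 ratio of P5 against E18 was -0.16. It was -1.02, -2.50 and 3.16 within sets B, C and D, with 1 cell above 10 RPM in each of E18 set C, E18 set D, P5 set B and P5 set C. Without the highest E18 cell the ratio turned positive and passed the call, as given below. By type at P5, Chrna4 was at 2.37, 29.5 and 21.0 RPM, with log2 ratios of -2.97, 1.67 and 0.78 for types 1, 2 and 3. The value of type 1 kept its sign within sets C (-5.88) and D (-1.64), whereas that of type 2 was -0.14 within set D. That of type 3 turned negative without its highest cell, as given below. This cell held 3233 of the 3645 Chrna4 read pairs of type 3 in set D.

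Chrna4 and Chrnb2 were seldom seen in the same cell. Both passed 10 RPM in 2 E18 cells, of 4 with Chrna4 and 5 with Chrnb2, and in none of the postnatal cells, of 7 and 12. Of the 2 E18 cells, 1 carried 331 RPM of Chrna4 and 97.3 of Chrnb2 and the other 17.8 and 53.8 RPM. The latter was among the 12 with excitatory neuron markers and passed for 0 of 7 interneuron markers. At such low numbers of cells no pairing beyond these counts can be read.

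Chrna7 passed the threshold at E18 only. It was above 10 RPM in 4 of 82 E18 cells (23.99, 33.7, 39.6 and 151.98 RPM) and in no postnatal cell, which allows a share of up to 2.13%. Postnatally the highest cell had 9.58 RPM (P2 type 2). Of the 4 E18 cells, 3 were among the 12 with excitatory neuron markers, and without those 12 the E18 share was 1.43%. The part of such cells in the age difference was not tested. Chrna5, the accessory subunit, had 28 read pairs in 7 cells in all and passed 10 RPM in none.

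Few cells held several receptors. Of all cells, 37 were above 10 RPM for none of the 9 members, 41 for 2, 10 for 3 and 1 for 4, and the rest for 1. The cell with 4 was a P5 type 3 cell with Htr3a, Htr3b, Htr1b and Chrnb2. The share of cells with 2 or more was 57.9% (11 of 19, 33.5 to 79.7%) in P5 type 2, 31.8% (7 of 22) in P5 type 3, 29.0% in P2 type 2, 19.5% in E18, 15.4% in P2 type 3, 14.7% in P5 type 1 and 9.09% in P2 type 1. Type 1 had the lowest share at each age when all library sets were pooled. Within set D at P5, an alternative added after seeing the data, 4 of 12 type 1 cells (9.92 to 65.1%), 9 of 14 type 2 cells (35.1 to 87.2%) and 6 of 17 type 3 cells (14.2 to 61.7%) had 2 or more, and these intervals overlap. The parts of the library set and of the 5 P5 type 2 cells with markers of other cell classes in the pooled shares were not tested. In P5 type 2 the median depth was 8931263 mapped read pairs for cells with 2 or more members and 9114966 for all cells of the group. In P5 type 3 it was 6545530, 7700090 and 8244130 for cells with 0, 1 and 2 or more members. It rose in this order in P2 type 1 as well, fell in P2 type 2 and P5 type 2, and did neither in the other groups.

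The calls were then read against all genes. To enter, a gene had to pass 10 RPM in over 5% of the cells of that age, which 3 members did at P2 (Htr3a, Htr3b, Htr2c) and 4 at P5 (Htr3a, Htr3b, Chrna4, Chrnb2). At P2, 1 of 3 members was called for type 1 (Htr2c, lower), where 51.3% of all genes tested were, 1 for type 2 (Htr3b, 1.03), against 48% of all genes, and 3 for type 3 (Htr3a and Htr3b lower, Htr2c higher), against 69.4%. At P5, 2 of 4 were called for type 1 (Chrna4 and Chrnb2, both lower), against 47.3%, 1 for type 2 (Chrna4, higher), against 45.3%, and 1 for type 3 (Chrnb2, 1.18), against 60.4%. For age, 2 of 4 were called at P2 against E18 (Htr3b lower, Htr2c higher), where 35.8% of all genes were, and 1 of 4 at P5 against E18 (Chrnb2, higher), where 33.6% were. Between ages a gene was tested if it passed in over 5% of the cells of either age, and Htr2c entered P2 against E18 through P2 alone (6.06% of cells, against 3.66% at E18), the age where it was higher, so that the filter favoured its call. The same holds between types for Htr2c at P2, which passed in no type 1 cell. It holds for the lower call of Htr3b in type 3 at P2, where no type 3 cell passed. It also holds for Chrna4 at P5, which passed in 2.94% of type 1 cells. All entered through the types where they were higher, so that the filter favoured these calls. Of the 2 members tested at both ages, Htr3a and Htr3b, neither was called in the same direction for a type at P2 and P5, against 15.4%, 12.9% and 30.7% of all genes for types 1, 2 and 3. With 2 to 4 members in each comparison, these counts cannot be set apart from the backgrounds. Without 1 top cell, 4 of the 12 calls were lost: Htr3b for type 2 at P2 (0.25), Chrnb2 for type 3 at P5 (0.45), Htr2c for type 3 at P2 (-2.50, the opposite sign) and Htr3b at P2 against E18 (-0.43, without the highest E18 cell).

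For the members with a pooled level of at least 10 RPM in some group, the genes with the most alike profile were sought by Pearson's r of log2(pooled RPM + 1) over the 7 groups among 5644 genes. For Htr3a these were Crnkl1 (0.989), Mbnl2 (0.977) and Uqcrq (0.977), and for Htr3b 5031439G07Rik (0.985), Atrn (0.984) and Adam23 (0.98). For Chrnb2 they were Reps2 (0.96), Pabpn1 (0.946) and Lsm11 (0.944), and for Chrna4 Slc2a13 (0.981), Hspe1 (0.973) and Dlg3 (0.971). Those of Htr2c included Nipa2 (0.955) and Nrxn2 (0.952), and those of Htr1b were Gucd1 (0.963), Tcp11l1 (0.961) and Gjc3 (0.957). These are descriptions over 7 points that share cells and depth between genes. Spearman's correlation gave other top 3 genes for Htr1b and Chrna4, and was 0.607 for Htr1b with Gucd1. In P5 type 3, 1 cell held 2151 of the 2679 Htr1b read pairs.

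The other genes of both transmitter systems differed in how many cells held them. Of 46 further genes in 6 lists, 29 were above 10 RPM in at least 1 cell, 3 had no read pair, and 2 reached 25% of the cells of a group, the muscarinic receptor Chrm3 and the serotonin-degrading enzyme Maoa. The 9 other serotonin receptors were above 10 RPM in 12 cells in all, the 12 other nicotinic subunits in 45, and the 8 receptor chaperones and modulators in 47.5% of all cells, led by Tmem35a with 42 cells. The enzymes and transporters of acetylcholine passed in 6 cells and those of serotonin in 59.

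Chrm3, a Gq-coupled acetylcholine receptor, was above 10 RPM in cells of types 2 and 3 and in none of type 1. It is named because it reached 25% of the cells of P2 type 2, P5 type 2 and P5 type 3. The naming rule thus favoured this difference, and no share over all genes was set beside it. At P2 it passed 10 RPM in 0 of 22, 8 of 31 and 3 of 13 cells of types 1, 2 and 3, and at P5 in 0 of 34, 5 of 19 and 14 of 22. At E18 9 of 82 cells passed. The pooled level at P5 was 0.0405, 21.2 and 32.3 RPM, and type 1 at P2 had no read pair. P5 type 3 was the highest group, with 63.6% of its cells. Maoa passed in 9 of 82 E18 cells, in 1, 7 and 5 cells of P2 types 1 to 3 and in 3, 2 and 6 cells of P5 types 1 to 3, at pooled levels of 39.9, 11.3, 55.5, 22.2, 4.37, 13.5 and 36.3 RPM.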

How the data were processed

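The table holds the number of read pairs on the exons of each gene in each cell, counts that the authors deposited; per the labels each cell also has a coefficient that turns a count into RPM. Single cells were captured and amplified on the C1 system (SMARTer chemistry) and libraries made with Nextera XT. The submitters' processing notes name TopHat2, HTSeq 0.6.1 and GRCm38 (mm10). The strand setting of the counting is not given in the sources used here. The study kept cells with enough mapped read pairs, little mitochondrial RNA and at least 1 read on eGFP.

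Identifiers were matched to GENCODE symbols (42462 of 43629 matched) and exon lengths, and windows upstream of start sites came from RefSeq (8 of 9 members matched, all but Htr3a). RPM was the count times the coefficient, and a pooled RPM the summed counts over the summed mapped read pairs. Ratios were log2 of pooled RPM with 1 RPM added, a gene being called at 1 or more in size if it passed 10 RPM in over 5% of the cells of the age (of either age, between ages). RPKM used merged exon lengths. A count of 0 allows up to 3 counts or cells. The named genes were the 9 members, pathway and marker genes of the lists that passed 10 RPM in 25% or more of a group's cells (others were counted, and markers named as checks), and the 3 genes most like each member, of which 1 is not reported here. The rule, the members and the lists were chosen with earlier results of these data known. The calculation of ratios was checked on simulated counts with set ratios. Their spread between cells was not fitted to that of the members, so this does not show how stable the members' ratios are. Values were computed with scipy 1.17.1, pandas 2.3.3 and numpy 2.4.6 in Python 3.11.15, and drawn with matplotlib 3.10.9. R 4.3.3 with edgeR 4.0.16 and DESeq2 1.42.0 served for other scalings only. Other thresholds, pseudocounts, scalings, filters, left-out cells and single library sets were tried. Fits with a count model were not made, since each group is 1 sample.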

Additional observations from a re-analysis of the deposited data

How the results depend on the processing

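The share of cells with Htr3a was 75.6% at E18, and it was 97.6% when 1 read pair sufficed and 61.8% without library set B. At P2 it was 77.3%, and 87.9% above 1 RPM and 100% with at least 1 read pair. At P5 it was 84%, and 94.7% with at least 1 read pair and 93.3% without set B. Leaving out set B, and leaving out cells with markers of other classes, were alternatives chosen after seeing the data.

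The log2 ratio of Htr3a between types at P2 was 0.52 for type 1 and 2.14 as a difference of mean log2 values, and -1.39 for type 3, with -0.68 under TMM and -0.47 under DESeq2 size factors. At P5, type 1 went from -0.34 to -1.09 as a difference of means and to 1.42 within set C. Type 2 went from 1.00 to 1.01 under DESeq2 size factors, 1.53 as a difference of means, 1.20 with the top cell of types 1 and 3 left out and 1.19 without cells with markers of other classes. Type 3 went from -0.86 to -1.50 within set D and -1.12 without set B. The ratio of P5 against E18 went from -0.89 to -1.0002 without the highest P5 cell, -4.38 within set B, -2.11 within set C and -1.08 without cells with markers of other classes.

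Among the other members, and counting ratios that passed the call in at least 1 of both settings, signs turned for Htr2c in P2 type 3 without its highest cell (-2.50) and, at P5, for Htr3b in type 2 as a difference of means (1.26), for Chrna4 in type 2 within set D (-0.14) and for Chrna4 in type 3 without its highest cell (-1.86). Against E18 they turned for Htr3b at P2 as a difference of means (0.24) and for Chrna4 at P5 without the highest E18 cell (1.31) and within set D (3.16). The cause was not tested. Ratios below the call in both settings could change sign as well. Of 305 alternatives to 29 ratios, 232 stayed on their side of the call, 26 came to lie below it, 39 past it, and 8 turned sign as above or, for Htr3a, within set C. None of the 12 called ratios held under every alternative.

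With a limit of 1.5-fold in place of 2-fold, the number of members called for types 1 to 3 was 1, 2 and 3 at P2, where 68.3%, 66.1% and 81.8% of all genes were, and 3, 3 and 4 at P5, where 66.1%, 64.9% and 75.8% were. It was 2 for P2 and 3 for P5 against E18 (56.5% and 55% of all genes), and 1 was called the same way at both ages for type 3 (41.6%). With a log2 limit of 2 it was 1, 0 and 1 at P2 (26.5%, 21.8% and 47.8%), 1, 0 and 0 at P5 (20.2%, 18.8% and 33.3%), 1 for P2 against E18 (12%) and 0 for P5 against E18 (10.5%).

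The number of genes called was 4309, 4032 and 5830 for types 1 to 3 at P2, 4577, 4381 and 5843 at P5, 3600 for P2 against E18 and 3561 for P5 against E18. Without a filter it was 8087, 7747, 9753, 7481, 7203, 8838, 6487 and 6042 in the same order, and with at least 25% of cells above 10 RPM 772, 684, 1313, 1040, 900, 1700, 777 and 836. No paired analysis was possible because no result comes from a test and the replicate numbers only name cells, whereas groups that share library sets were compared within those sets. The number of cells limits what can be said of the rare members: where no cell of a group passed, the share could still be up to 3 cells of that group.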
